A study of Mus musculus with 6 samples.

Results

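The genes described here are 42 mouse genes that fold proteins in the endoplasmic reticulum (ER), send misfolded proteins to degradation, move new proteins into the ER, or sense and signal ER stress. They were taken by symbol from a table of 14327 genes, and all 42 were found: 18 folding genes, 11 degradation genes, 4 translocation genes and 9 sensors and signalling genes. RNA had been sequenced from neurospheres, free-floating clusters that neural stem cells form in culture, in 3 libraries labelled cKO and 3 labelled WT. The cKO label stands for a conditional knockout of Slc22a17, a cell surface receptor for the iron-binding protein lipocalin 2. In both groups the cells came from the hippocampus of mice at postnatal day 0 and were kept in DMEM-F12 with B27, N2, EGF and bFGF. The Cre driver, the floxed exons, the strain and the number of animals or cultures behind each library are not stated in the labels. A p-value below therefore sets a difference between the groups against the spread between libraries, moderated over all tested genes. It says nothing about the spread between animals.

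Slc22a17 itself was abundant in all 6 libraries, at 164, 166 and 187 FPKM in the cKO-labelled libraries and at 181, 169 and 204 FPKM in WT (log2 fold change -0.097, adjusted p = 0.707 by limma). An FPKM value is a fragment count divided by the length of the transcript and by the size of its library. The gene-level value of Slc22a17 was near that of WT, and the floxed exons are not stated. Loss of the targeted exons therefore cannot be read from it either way. Each difference below is one between libraries by their labels. The Y-linked genes Ddx3y and Eif2s3y together stood at 43.8 to 51.2 FPKM in the cKO-labelled libraries, at 25.9 FPKM in WT replicate 3, and at 0.10 and 0.07 FPKM in WT replicates 1 and 2. The sex of the animals is not stated in the labels. The Y-linked level moved with the group label, and the main fit does not separate them. Fits with that level as a covariate are given among the alternatives. The neural stem cell markers Nes, Sox2, Vim and Fabp7 were high in every library, with Nes at 80.7 to 118 FPKM and Sox2 at 123 to 148 FPKM. The astrocyte marker Gfap was also high in all of them, at 1661 to 2741 FPKM. Of other cell types, 6 microglial markers summed to 4.71 to 11.0 FPKM in the cKO-labelled libraries and 7.89 to 10.02 FPKM in WT, and the 4 neuronal markers in the table to 6.55 to 10 FPKM in the cKO-labelled libraries and 6.08 to 7.26 FPKM in WT. The defining markers of choroid plexus (4 of 4 in the table), endothelial cells (2 of 5) and fibroblasts (2 of 4), secretory or vascular cells that could add ER transcripts, summed to at most 0.48 FPKM per type in any library. The 6 markers of the oligodendrocyte lineage summed to 112 to 140 FPKM in the cKO-labelled libraries and 127 to 186 FPKM in WT.

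The ER is where secreted and membrane proteins are threaded through the Sec61 channel, folded by chaperones, cross-linked by disulfide isomerases and checked by lectins that read their sugar chains. Proteins that fail are pulled back into the cytosol and destroyed by the proteasome, a route called ER-associated degradation. When unfolded proteins pile up, the sensors IRE1 (encoded by Ern1), PERK (Eif2ak3) and ATF6 start the unfolded protein response: IRE1 splices Xbp1 mRNA, PERK slows translation and favours ATF4, and ATF6 is cut by the Golgi proteases S1P and S2P to free a transcription factor. The response raises chaperone and degradation genes, largely through short promoter elements bound by ATF6, XBP1 and the CCAAT-binding factor NF-Y.

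The best known of these elements is the ER stress response element (ERSE), the letters CCAAT, 9 free bases and CCACG, in which NF-Y holds the CCAAT end and ATF6 the CCACG end. It was searched on both strands in the promoters of RefSeq genes in GRCm38.p6, from 250 bases before to 50 bases after each annotated start. Of the 42 members 36 had a promoter there, and 10 of these 36 (27.8%) held an exact ERSE, against 0.184% of the 11428 genes of the expression table with a promoter. The 10 were 8 folding genes and 2 degradation genes, with 11 matches in all because Hsp90b1 held 2. Of the matches 6 lay on the gene's strand and 5 on the other. Each is shown to make the shared letters visible, read on the strand of the element, with the fixed letters in capitals and the free spacer of 9 bases in lower case.
Hspa5 (chr2:34772025-34772043): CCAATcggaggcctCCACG
Hsp90b1, far match (chr10:86705638-86705656): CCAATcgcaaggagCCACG
Hsp90b1, near match (chr10:86705533-86705551): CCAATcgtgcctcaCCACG
Calr (chr8:84847075-84847093): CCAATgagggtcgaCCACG
Canx (chr11:50325800-50325818): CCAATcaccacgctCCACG
Pdia6 (chr12:17266491-17266509): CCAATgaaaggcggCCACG
Dnajc3 (chr14:118937827-118937845): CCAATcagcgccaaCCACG
Creld2 (chr15:88819520-88819538): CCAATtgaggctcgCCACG
Ero1lb (chr13:12565682-12565700): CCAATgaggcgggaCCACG
Syvn1 (chr19:6046532-6046550): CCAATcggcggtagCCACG
Derl3 (chr10:75893242-75893260): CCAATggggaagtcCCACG
A match is a run of letters and was not tested for binding. The first base of the matches lay 44 to 212 bases before the start, nearest in Syvn1 and farthest in the far match of Hsp90b1.

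**Figure D1:**
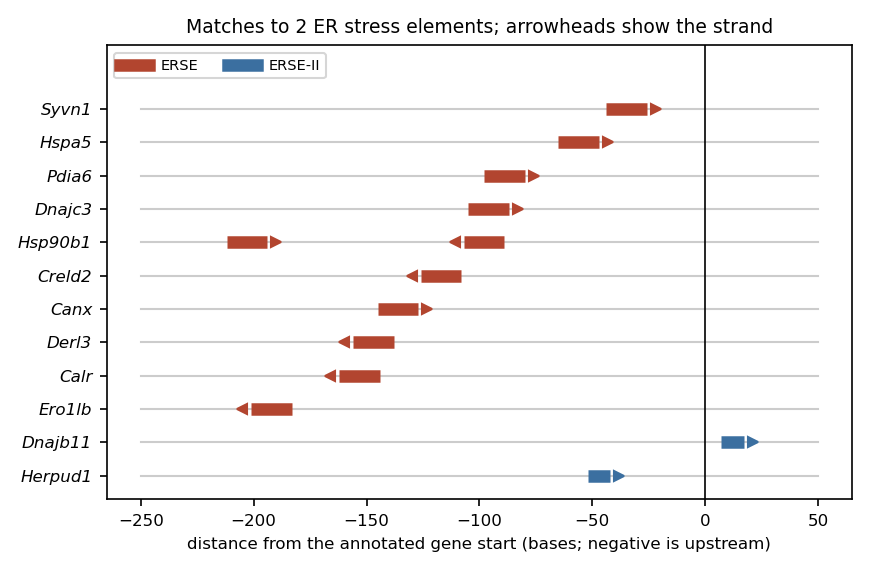
Positions of exact ERSE (red) and ERSE-II (blue) matches along the promoters of 12 ER genes, in bases from the annotated gene start on the x axis, with 1 row per gene and arrowheads for the strand. The ERSE matches begin 44 to 212 bases before the start, and Hsp90b1 holds 2 of them on opposite strands.

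A shorter relative, ERSE-II (ATTGG, 1 free base and CCACG), stood in Herpud1 (ATTGGgCCACG, chr8:94386377-94386387) and Dnajb11 (ATTGGcCCACG, chr16:22857852-22857862, just after the annotated start), that is in 5.56% of the members with a promoter and in 0.0700% of the table's genes. No gene of the table held both elements. The XBP1-type core TGACGTGG was found in Vcp alone among the members (2.78%, against 1.01% of the table's genes), and the ATF4-type element TGATGCAA in Herpud1 alone (2.78%, against 0.656%). Whole promoters are shown for a fixed choice of genes with an ERSE or ERSE-II, 5′ to 3′ on the gene's strand, with the fixed letters of these elements in capitals. On the opposite strand an ERSE reads as CGTGG, the spacer, and ATTGG.
Hspa5 (chr2:34771840-34772139, plus strand): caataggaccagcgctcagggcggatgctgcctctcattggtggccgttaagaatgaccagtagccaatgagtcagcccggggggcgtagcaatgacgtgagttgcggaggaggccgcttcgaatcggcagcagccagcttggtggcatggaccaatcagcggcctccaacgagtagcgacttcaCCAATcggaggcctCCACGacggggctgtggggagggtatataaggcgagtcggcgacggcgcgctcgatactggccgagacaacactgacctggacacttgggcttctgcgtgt
Hsp90b1 (chr10:86705395-86705694, minus strand): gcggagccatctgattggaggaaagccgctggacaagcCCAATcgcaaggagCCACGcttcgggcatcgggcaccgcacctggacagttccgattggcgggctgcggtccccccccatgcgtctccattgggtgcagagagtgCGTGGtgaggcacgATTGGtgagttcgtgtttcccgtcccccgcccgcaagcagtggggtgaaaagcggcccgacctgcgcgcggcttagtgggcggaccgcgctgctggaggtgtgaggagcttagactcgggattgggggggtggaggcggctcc
Pdia6 (chr12:17266339-17266638, plus strand): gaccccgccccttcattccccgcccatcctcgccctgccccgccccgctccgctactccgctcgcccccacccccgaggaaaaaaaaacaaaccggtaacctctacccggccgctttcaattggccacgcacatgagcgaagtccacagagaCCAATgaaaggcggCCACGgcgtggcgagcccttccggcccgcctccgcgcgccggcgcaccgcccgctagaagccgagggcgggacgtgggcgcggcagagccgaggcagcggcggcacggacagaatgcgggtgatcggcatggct
Calr (chr8:84846882-84847181, minus strand): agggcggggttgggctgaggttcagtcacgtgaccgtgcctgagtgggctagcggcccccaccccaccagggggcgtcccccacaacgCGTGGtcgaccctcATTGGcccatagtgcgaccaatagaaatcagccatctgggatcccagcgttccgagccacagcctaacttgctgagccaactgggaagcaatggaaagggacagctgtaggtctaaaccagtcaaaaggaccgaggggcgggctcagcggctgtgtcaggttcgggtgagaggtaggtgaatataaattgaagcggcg
Herpud1 (chr8:94386179-94386478, plus strand): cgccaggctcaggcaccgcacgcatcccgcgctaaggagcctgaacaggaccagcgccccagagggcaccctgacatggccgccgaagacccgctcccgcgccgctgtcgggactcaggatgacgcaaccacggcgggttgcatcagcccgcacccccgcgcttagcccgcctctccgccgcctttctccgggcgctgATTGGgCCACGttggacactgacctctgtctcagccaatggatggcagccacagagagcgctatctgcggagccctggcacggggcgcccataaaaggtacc

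None of the ER genes passed the test of the cKO-labelled libraries against WT that was applied across the table. Values were compared as log2(FPKM + 1) with limma, adjusted by Benjamini-Hochberg over the 11596 genes whose mean over the 6 libraries reached 1 FPKM, and 41 of the 42 members were among these. At an adjusted p under 0.05, 0 of the 41 passed, where 0.0259% of all tested genes did (0.00862% higher and 0.0172% lower in the cKO-labelled libraries). The adjusted p-values of the members ran between 0.306 for Pdia6 and 0.996 for Edem2. At an unadjusted p under 0.05 there was 1 member, Pdia6, or 2.44% of those tested, against 12.3% of all tested genes (4.44% higher and 7.82% lower). The 2 groups of libraries did not overlap for 5 members, all lower in the cKO-labelled libraries (Pdia6, Sdf2l1, P4hb, Canx and Mbtps1), or 12.2%, against 17.2% of all tested genes (7.07% higher and 10.2% lower). The members divided almost evenly by direction, with 20 means higher and 21 lower in the cKO-labelled libraries. Over all tested genes 5172 means were higher and 6405 lower. Their median log2 fold change was -0.025 and that of all tested genes -0.015. In RNA of whole cultures, fewer cells of a type and less RNA per cell cannot be told apart.

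**Figure D2:**
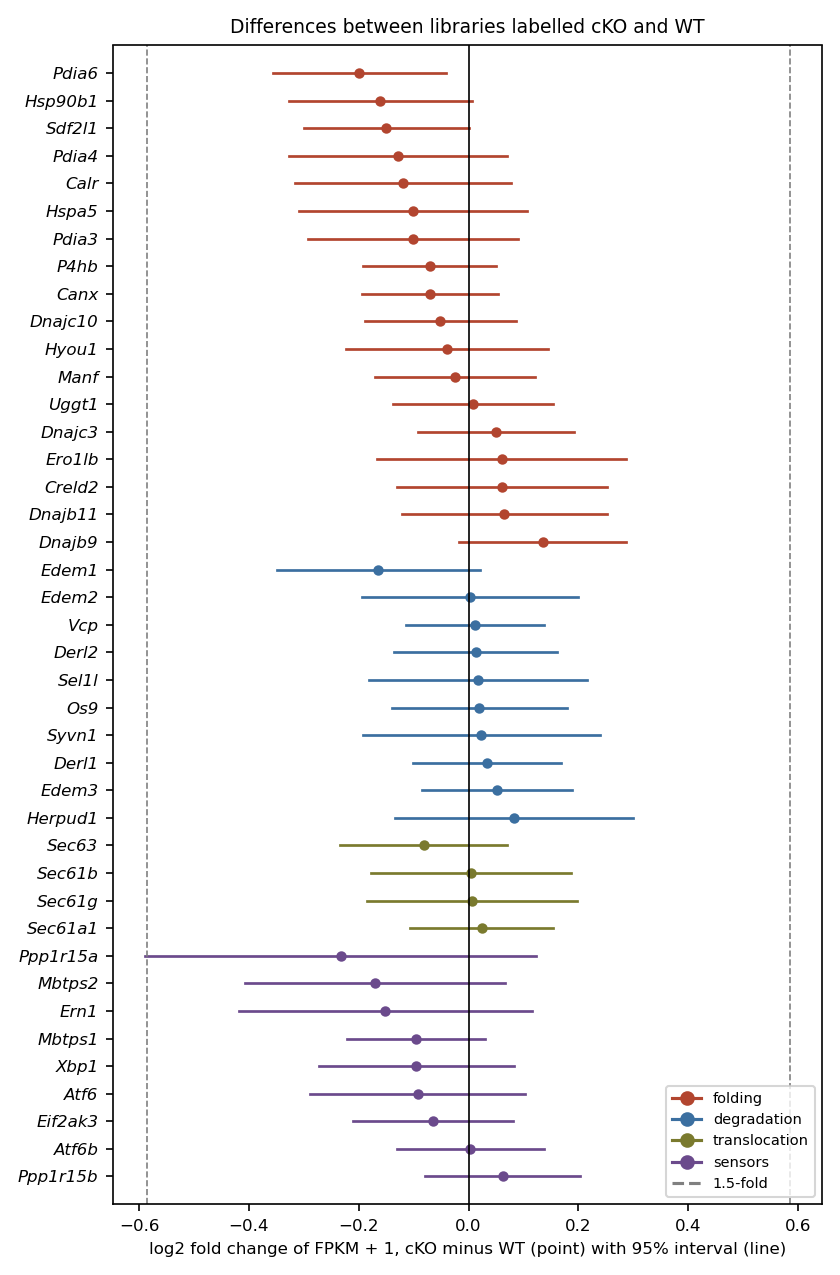
Log2 fold change of FPKM + 1, cKO minus WT, for the 41 tested ER genes (points) with 95% intervals (lines), coloured by role, with dashed lines at a 1.5-fold difference either way. The intervals of 40 of the 41 genes lie between the dashed lines, and that of Ppp1r15a reaches past the lower of them.

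The intervals were narrow for most members. The 95% interval of the fold change lay within 1.5-fold either way for 40 of the 41 (97.6%, against 92.5% of all tested genes). The members were also more abundant than most genes, with a median level of 28.4 FPKM against 12.3 FPKM for all tested genes, and the median SD between libraries of a group was 0.088 on the log2 scale for the members and 0.098 for all tested genes. The median size of the log2 fold change, in either direction, was 0.064 for the members and 0.077 for all tested genes. Ppp1r15a, the exception, had an interval of 0.665-fold to 1.09-fold.

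**Figure D3:**
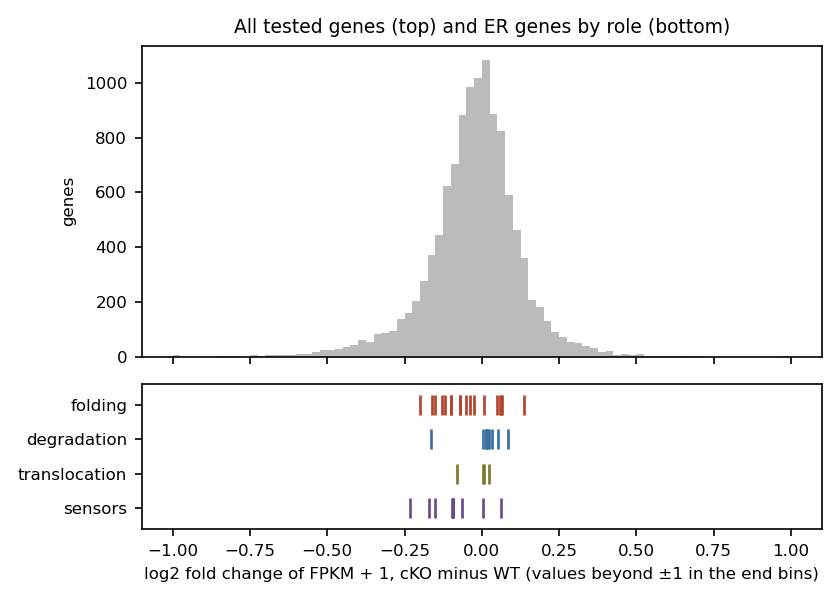
Numbers of genes by log2 fold change of FPKM + 1, cKO minus WT, for all 11596 tested genes (top), with the 41 tested ER genes as ticks by role below. The ER genes lie between -0.23 and 0.13, near the centre of the distribution of all genes.

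By level the calcium-binding chaperone Calr led the members with a mean of 419 FPKM over the 6 libraries, followed by Hsp90b1 at 225 FPKM, Hspa5 at 198 FPKM, Canx at 195 FPKM, the segregase Vcp at 186 FPKM and Pdia3 at 185 FPKM. FPKM are scaled to transcript length, so these levels can be set side by side. The ranges of Hspa5 (172 to 219 FPKM), Canx (188 to 203 FPKM), Vcp (182 to 191 FPKM) and Pdia3 (160 to 201 FPKM) overlapped, and their order is not resolved by the spread between libraries. The sensors were far lower, with Eif2ak3 at 9.59 FPKM, Atf6 at 8.95 FPKM and Ern1 at 2.28 FPKM, and Xbp1 at 15.6 FPKM. Derl3, a derlin of secretory tissues, was the lowest at 0.737 FPKM. It stood at 1.06, 0.87 and 0.47 FPKM in the cKO-labelled libraries and at 0.79, 0.84 and 0.39 FPKM in WT and was left out of the test.

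Among the chaperones, the HSP70 and HSP90 proteins of the ER had slightly lower means in the cKO-labelled libraries, and neither passed. Hspa5 (gene identifier 14828, chromosome 2, 34772090 to 34776529), which encodes BiP, the HSP70 that binds unfolded chains and holds the sensors inactive, stood at 172, 219 and 183 FPKM in the cKO-labelled libraries and at 208, 199 and 206 FPKM in WT. The WT libraries lay close together inside the range of the others, which held both the lowest and the highest value. Its log2 fold change was -0.10 (95% interval -0.31 to 0.11, adjusted p = 0.711). Hsp90b1 (identifier 22027, chromosome 10, 86690841 to 86705444), the ER form of HSP90, stood at 205, 227 and 205 FPKM in the cKO-labelled libraries and at 234, 254 and 225 FPKM in WT. Only cKO replicate 2 and WT replicate 3 crossed (log2 fold change -0.16, SE 0.073, adjusted p = 0.423). Hyou1, an HSP70-like exchange factor for BiP, had means of 26.9 ± 2.60 FPKM in the cKO-labelled libraries and 27.6 ± 1.73 FPKM in WT (SD, n = 3 each).

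The J-domain proteins, which hand clients to BiP, showed no common direction. Dnajb9 (ERdj4, chromosome 12, 44205897 to 44210068), a target of XBP1 that quietens IRE1, stood at 40.0, 39.3 and 35.8 FPKM in the cKO-labelled libraries and at 36.5, 32.8 and 35.2 FPKM in WT. It had the highest fold change of the 41 members, 0.13 on the log2 scale (interval -0.017 to 0.29, adjusted p = 0.461), and the groups overlapped at cKO replicate 3 and WT replicate 1. Dnajb11 (ERdj3) averaged 53.3 FPKM in the cKO-labelled libraries and 50.9 FPKM in WT. Dnajc3 (p58IPK) averaged 26.9 FPKM in the cKO-labelled libraries and 25.9 FPKM in WT, and Dnajc10 (ERdj5, which also reduces disulfides) 25.8 FPKM in the cKO-labelled libraries and 26.7 FPKM in WT. Sdf2l1 (chromosome 16, 17130138 to 17132383), which keeps ERdj3 with its clients, stood at 12.03, 13.6 and 12.8 FPKM in the cKO-labelled libraries and at 13.8, 14.6 and 14.5 FPKM in WT. All 3 values of the cKO-labelled libraries were below all 3 WT values, though cKO replicate 2 and WT replicate 1 were close (log2 fold change -0.15, adjusted p = 0.407).

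The disulfide isomerases, which form and shuffle bonds between cysteines, mostly had lower means in the cKO-labelled libraries. Pdia6 (P5, identifier 71853, chromosome 12, 17266589 to 17284785), which also tempers IRE1 and PERK, stood at 70.8, 83.5 and 79.0 FPKM in the cKO-labelled libraries and at 90.8, 87.5 and 89.4 FPKM in WT. The groups did not overlap, and its log2 fold change of -0.20 (SE 0.069, interval -0.36 to -0.041) had the lowest p of all members (unadjusted p = 0.0195, adjusted p = 0.306). Pdia4 (ERp72) stood at 78.1, 100.2 and 89.5 FPKM in the cKO-labelled libraries and at 99.0, 95.2 and 97.5 FPKM in WT, so that cKO replicate 2 was the highest and cKO replicate 1 the lowest library (log2 fold change -0.13, adjusted p = 0.599). Pdia3 (ERp57, the isomerase that works with calnexin and calreticulin) averaged 179 ± 20.7 FPKM in the cKO-labelled libraries and 191 ± 1.63 FPKM in WT. P4hb, the founding isomerase and a subunit of collagen prolyl hydroxylase, averaged 123 ± 1.59 FPKM in the cKO-labelled libraries and 129 ± 3.34 FPKM in WT, with no overlap (adjusted p = 0.641). Ero1lb, an oxidase that recharges these enzymes, was scarce in both groups, at 2.55 FPKM on average in the cKO-labelled libraries and 2.41 FPKM in WT.

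The genes of the lectin cycle, which retains glycoproteins until they fold, did not pass. Calr averaged 402 ± 42.2 FPKM in the cKO-labelled libraries and 436 ± 11.4 FPKM in WT (log2 fold change -0.12, adjusted p = 0.624). Canx, its membrane-bound counterpart, averaged 190.2 ± 2.99 FPKM in the cKO-labelled libraries and 199.6 ± 2.74 FPKM in WT, without overlap (adjusted p = 0.656). Uggt1, the sensor that marks unfolded glycoproteins for another round, averaged 14.2 FPKM in the cKO-labelled libraries and 14.1 FPKM in WT. The secreted stress proteins Manf, at 57.0 FPKM in the cKO-labelled libraries and 58.0 FPKM in WT, and Creld2, at 23.1 FPKM in the cKO-labelled libraries and 22.0 FPKM in WT, were likewise close between the groups.

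The spread among the cKO-labelled libraries was wider for the folding genes than that among WT libraries. The 18 folding genes summed to 1633, 1889 and 1716 FPKM in cKO replicates 1 to 3 and to 1867, 1852 and 1862 FPKM in WT replicates 1 to 3. On the log2 scale they stood on average at -0.12, 0.044 and -0.062 in the cKO-labelled libraries, relative to the mean of WT. Replicate 1 was the lowest of the 3 libraries labelled cKO for 12 of 18 folding genes (66.7%, against 34.3% of all tested genes). Replicate 2 was the highest of these libraries for 13 (72.2%, against 30.5%). The folding genes were not alone in this. Among 29 further genes of translocation, signal peptide cleavage and glycosylation, described below, the shares were 69.0% and 51.7%. Among 34 further folding enzymes they were 44.1% and 32.4%. Without cKO replicate 2, 7 of the 18 folding genes had an unadjusted p under 0.05, all with lower means in the cKO-labelled libraries. They were Pdia6, Hsp90b1, Pdia4, Hspa5, Calr, Sdf2l1 and Pdia3. Members of the other roles had none, so the share was 17.1% of the 41 tested members, against 11.9% of all tested genes in the same fit. The log2 fold changes of these 7 then ran from -0.25 to -0.19, and the lowest adjusted p was 0.296. Without cKO replicate 1 none of the 7 had an unadjusted p under 0.05, and Hspa5 stood at -0.026.

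**Figure D4:**
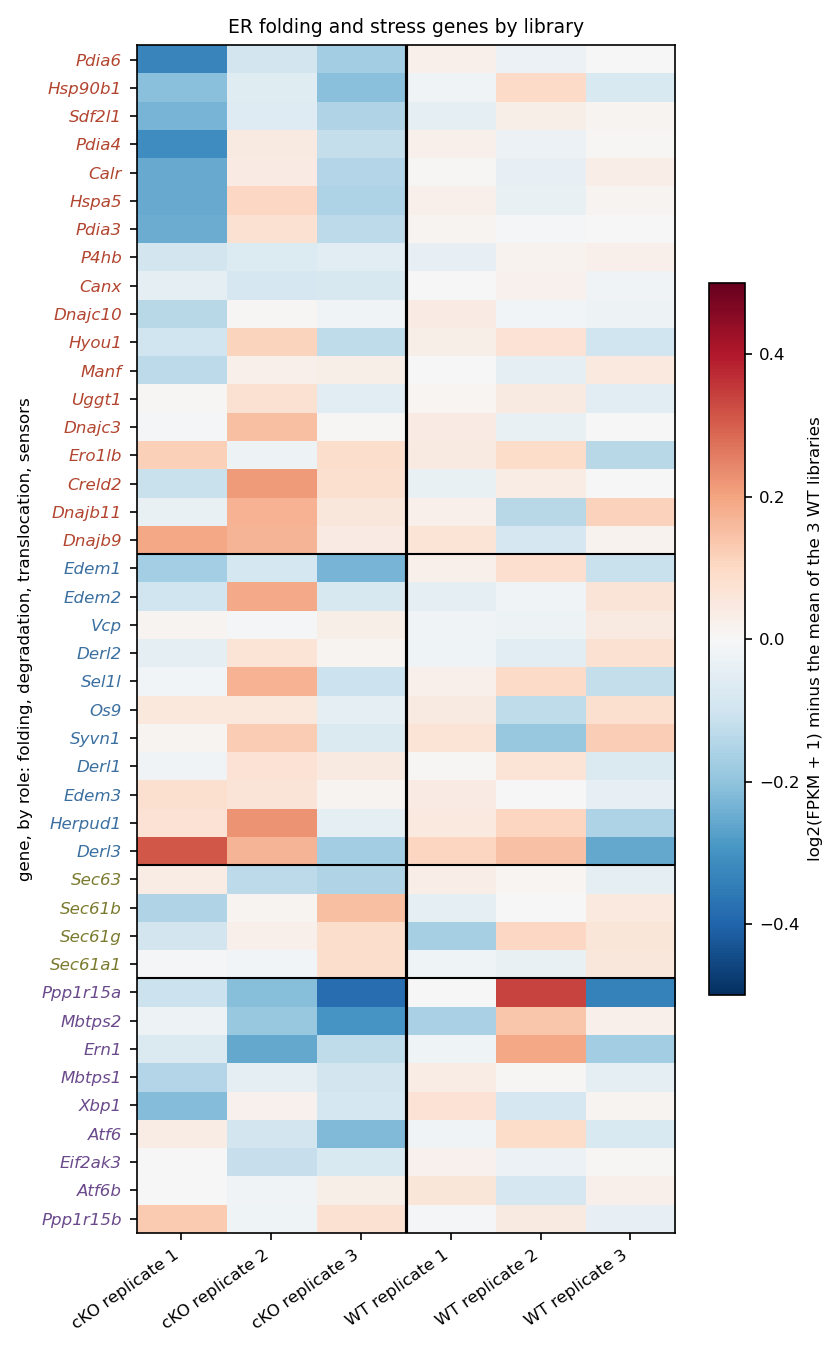
Level of each of the 42 ER genes (rows, by role) in each library (columns), as log2(FPKM + 1) minus the mean of the 3 WT libraries, blue for lower and red for higher. The column of cKO replicate 1 is bluest among the folding genes, which average -0.12 there, while cKO replicate 2 averages 0.044.

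Members were also set side by side by the elements shown above. The 9 tested members with an ERSE had a median log2 fold change of -0.069, with 5 means lower and 4 higher in the cKO-labelled libraries. The 11 with an ERSE or an ERSE-II, which adds Dnajb11 and Herpud1, had a median of 0.023, with 5 lower and 6 higher. The 24 tested members whose promoters held neither had a median of -0.058, with 13 lower and 11 higher. Among the folding genes alone, the 9 with either element stood on average at -0.12, 0.046 and -0.059 in cKO replicates 1 to 3, and the 7 with a promoter but neither element at -0.12, 0.034 and -0.070. These are averages on the log2 scale relative to WT, given as a description and with no test.

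The genes of ER-associated degradation were close to their WT levels, with a median log2 fold change of only 0.019. Of the 10 tested means 9 were higher in the cKO-labelled libraries, where 5172 of all 11596 tested genes were. Edem1 (chromosome 6, 108824045 to 108859356), a mannosidase-like protein that takes glycoproteins out of the folding cycle, was the exception. It stood at 5.95, 6.34 and 5.64 FPKM in the cKO-labelled libraries and at 6.96, 7.28 and 6.23 FPKM in WT, with cKO replicate 2 above WT replicate 3 (log2 fold change -0.16, interval -0.35 to 0.021, adjusted p = 0.462). Its relatives Edem2, at 18.5 FPKM in the cKO-labelled libraries and 18.3 FPKM in WT on average, and Edem3 did not share that direction. Edem3 stood at 12.8, 12.6 and 12.2 FPKM in the cKO-labelled libraries and at 12.4, 12.1 and 11.7 FPKM in WT (log2 fold change 0.052, adjusted p = 0.783).

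Herpud1 (identifier 64209, chromosome 8, 94386429 to 94395371), a stress-induced scaffold of the degradation complex and the member with both an ERSE-II and an ATF4-type element, stood at 13.1, 14.7 and 11.96 FPKM in the cKO-labelled libraries and at 12.9, 13.4 and 11.0 FPKM in WT. The groups overlapped over most of their range (log2 fold change 0.083, adjusted p = 0.781). Leaving out WT replicate 3 gave 0.0060, and leaving out cKO replicate 3 gave 0.15. With the Y-linked level as a covariate it was 0.50, and Herpud1 was the only member with an unadjusted p under 0.05 in that fit (unadjusted p = 0.0234, adjusted p = 0.921 by limma). That is 2.44% of the tested members, against 4.73% of all tested genes. The ubiquitin ligase Syvn1 (HRD1) averaged 14.4 FPKM in the cKO-labelled libraries and 14.2 FPKM in WT, and its partner Sel1l 32.3 FPKM in the cKO-labelled libraries and 31.9 FPKM in WT. The lectin Os9, which delivers glycoproteins to that ligase, stood at 53.4, 53.4 and 49.7 FPKM in the cKO-labelled libraries and at 53.1, 47.0 and 54.5 FPKM in WT (adjusted p = 0.942). Derl1, a derlin of the exit channel, stood at 37.8, 40.3 and 39.5 FPKM in the cKO-labelled libraries and at 38.4, 40.1 and 36.3 FPKM in WT (adjusted p = 0.866), and Derl2 averaged 14.5 FPKM in the cKO-labelled libraries and 14.4 FPKM in WT. Vcp, the ATPase that pulls substrates out of the membrane, was the steadiest member. Its values ran from 182 to 191 FPKM over all 6 libraries, a 1.05-fold range.

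The genes of the channel by which proteins enter the ER also had means near those of WT. Sec61a1, the pore-forming subunit, stood at 66.3, 65.9 and 70.7 FPKM in the cKO-labelled libraries and at 65.5, 64.7 and 69.3 FPKM in WT (log2 fold change 0.024, adjusted p = 0.909). The small subunit Sec61g stood at 44.3, 48.1 and 50.4 FPKM in the cKO-labelled libraries and at 42.1, 50.9 and 49.4 FPKM in WT (adjusted p = 0.984), and Sec61b averaged 50.1 ± 5.32 FPKM in the cKO-labelled libraries and 49.8 ± 1.75 FPKM in WT. Sec63, the J-domain protein that recruits BiP to the channel, stood at 30.9, 27.4 and 27.0 FPKM in the cKO-labelled libraries and at 30.8, 30.4 and 29.2 FPKM in WT. Here cKO replicate 1 was the highest of the 6 libraries and the other cKO-labelled libraries were the lowest (log2 fold change -0.081, adjusted p = 0.677).

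Of the 9 sensors and signalling genes 7 had lower means in the cKO-labelled libraries, where 6405 of all 11596 tested genes did. None passed, and their median log2 fold change was -0.095. The median was 0.024, on the other side of 0, with the Y-linked level as a covariate, and -0.021 against WT replicate 3 alone. In the IRE1 branch, Ern1 (chromosome 11, 106397620 to 106487796) stood at 2.27, 1.88 and 2.15 FPKM in the cKO-labelled libraries and at 2.39, 2.93 and 2.05 FPKM in WT (log2 fold change -0.15, adjusted p = 0.652). Leaving out WT replicate 3 gave -0.24 for Ern1, and leaving out WT replicate 2 gave -0.055. Xbp1 (chromosome 11, 5520641 to 5525993), its splicing substrate, stood at 13.7, 16.3 and 15.1 FPKM in the cKO-labelled libraries and at 16.9, 15.1 and 16.2 FPKM in WT (log2 fold change -0.095, adjusted p = 0.677). The value of Xbp1 was -0.15 without cKO replicate 2 and -0.034 without cKO replicate 1. Gene-level values do not separate spliced from unspliced Xbp1, so the activity of IRE1 is not measured here.

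In the ATF6 branch, Atf6 stood at 9.51, 8.61 and 7.78 FPKM in the cKO-labelled libraries and at 9.12, 9.93 and 8.72 FPKM in WT (log2 fold change -0.093, adjusted p = 0.719), while its relative Atf6b averaged 28.4 FPKM in both groups. The value of Atf6 was -0.16 without cKO replicate 1 and -0.028 without cKO replicate 3. Mbtps1, which encodes the protease S1P, stood at 29.1, 31.2 and 30.2 FPKM in the cKO-labelled libraries and at 33.2, 32.4 and 31.3 FPKM in WT. The groups were separated by the small gap between cKO replicate 2 and WT replicate 3 (log2 fold change -0.096, SE 0.055, adjusted p = 0.522). Mbtps2, the X-linked gene of the protease S2P, stood at 6.69, 5.87 and 5.37 FPKM in the cKO-labelled libraries and at 5.99, 7.61 and 6.96 FPKM in WT, with cKO replicate 1 above WT replicate 1 (log2 fold change -0.17, adjusted p = 0.553).

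In the PERK branch, Eif2ak3 stood at 9.82, 8.99 and 9.25 FPKM in the cKO-labelled libraries and at 9.99, 9.61 and 9.86 FPKM in WT (log2 fold change -0.064, adjusted p = 0.740). Ppp1r15b, the constant partner of the phosphatase that undoes the action of PERK, averaged 21.8 ± 1.21 FPKM in the cKO-labelled libraries and 20.8 ± 0.633 FPKM in WT. Ppp1r15a (GADD34, identifier 17872, chromosome 7, 45522917 to 45526268), its stress-induced partner, stood at 11.9, 11.0 and 9.65 FPKM in the cKO-labelled libraries and at 12.9, 16.5 and 9.97 FPKM in WT. The WT libraries held the highest value and, in replicate 3, the next to lowest, and the highest library was 1.71 times the lowest, the widest range of the tested members. Its log2 fold change was -0.23 (interval -0.59 to 0.12, adjusted p = 0.596). It was -0.40 when WT replicate 3 was left out (adjusted p = 0.230) and -0.063 when WT replicate 2 was. Against WT replicate 3 alone it was 0.10.

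**Figure D5:**
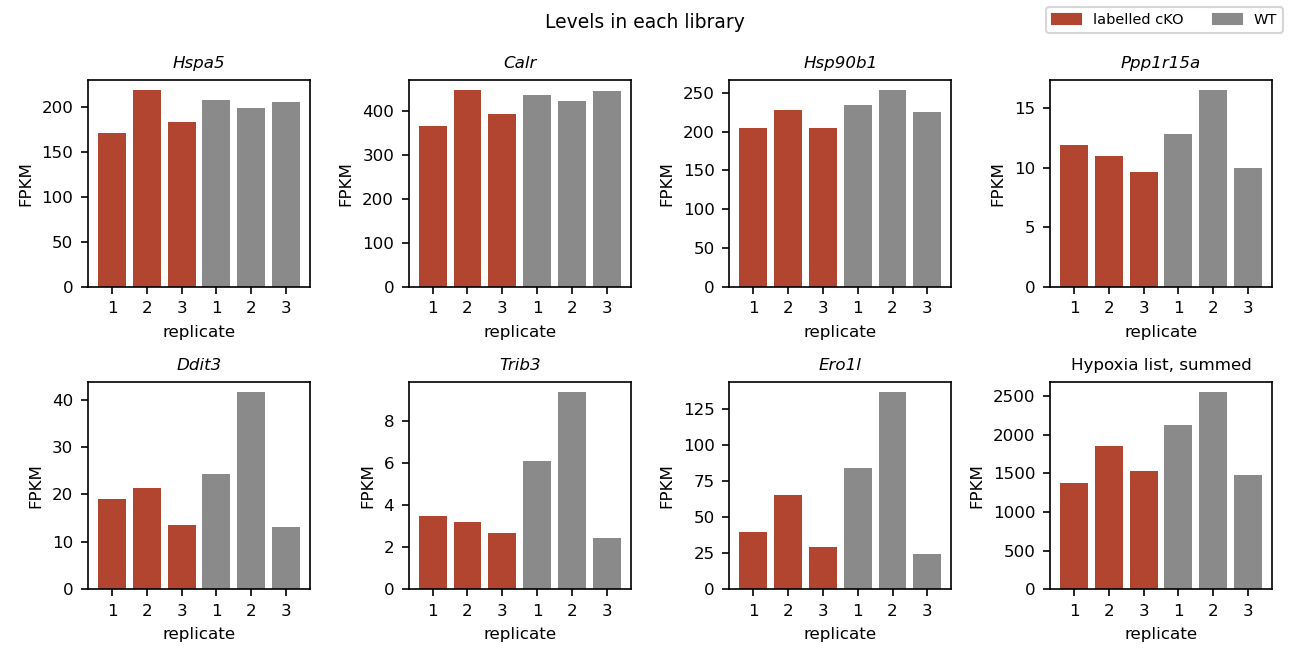
FPKM in each of the 3 cKO-labelled libraries (red) and the 3 WT libraries (grey) for 7 genes of the ER stress network and for the summed hypoxia response genes. WT replicate 2 is the highest library for Ppp1r15a, Ddit3, Trib3, Ero1l and the hypoxia sum, and WT replicate 3 stands among the lowest for each, while Hspa5, Calr and Hsp90b1 vary far less.

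The same unevenness of the WT libraries was seen in some stress genes outside the 42, among them Ddit3, Trib3 and Ero1l. It was not general. WT replicate 2 was the highest WT library for 8 of 17 further signalling genes (47.1%, against 41.1% of all tested genes). Tmbim6 (365, 329 and 369 FPKM in WT) and Creb3 (20.6, 20.5 and 25.5 FPKM in WT) had the opposite order. Ddit3, which encodes CHOP, the factor of prolonged ER stress, stood at 18.9, 21.4 and 13.6 FPKM in the cKO-labelled libraries and at 24.3, 41.6 and 13.2 FPKM in WT (log2 fold change -0.41, interval -1.20 to 0.37, adjusted p = 0.685). Trib3, a pseudokinase induced by CHOP and ATF4, stood at 3.50, 3.17 and 2.67 FPKM in the cKO-labelled libraries and at 6.11, 9.37 and 2.44 FPKM in WT (log2 fold change -0.63, adjusted p = 0.489). Ero1l, the oxidase paralogue of Ero1lb and a hypoxia response gene, stood at 39.4, 65.3 and 29.6 FPKM in the cKO-labelled libraries and at 84.3, 137 and 24.4 FPKM in WT (log2 fold change -0.62, adjusted p = 0.705). In Ddit3, Trib3 and Ero1l WT replicate 2 was the highest library and WT replicate 3 the lowest. Against WT replicate 3 alone their log2 fold changes were 0.39, 0.25 and 0.77 in the same order, the opposite sign. Leaving out WT replicate 3 gave -0.81 for Ddit3, -1.07 for Trib3 (adjusted p = 0.0850 by limma) and -1.32 for Ero1l. Leaving out WT replicate 2 gave -0.022 for Ddit3, -0.27 for Trib3 and -0.10 for Ero1l. Atf4, whose control lies mainly in translation, stood at 102, 76.1 and 92.8 FPKM in the cKO-labelled libraries and at 90.6, 98.4 and 94.97 FPKM in WT (adjusted p = 0.815).

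Lists of hypoxia response, immediate early and mitosis genes also differed between the same libraries. The 20 hypoxia response genes, Ero1l among them, summed to 1373, 1858 and 1526 FPKM in the cKO-labelled libraries and to 2124, 2554 and 1478 FPKM in WT. The 15 immediate early genes summed to 159, 155 and 144 FPKM in the cKO-labelled libraries and to 296, 223 and 204 FPKM in WT. The 20 mitosis genes summed to 373, 336 and 469 FPKM in the cKO-labelled libraries and to 483, 606 and 515 FPKM in WT. Of these lists, only that of hypoxia was both highest in WT replicate 2 and lowest in WT replicate 3. Among the ER roles, the sensors had the same order, summing to 141, 142 and 134 FPKM in WT replicates 1 to 3. So did the further folding enzymes, Ero1l among them, at 1695, 1733 and 1670 FPKM. The sums of the other ER roles did not. The immediate early and mitosis sums did not overlap between the groups, so culture and group cannot be told apart there. The part of hypoxia, of immediate early responses or of cell division in the values of Ppp1r15a, Ddit3, Trib3 and Ero1l was not tested. The 18 folding genes summed to 1852 to 1867 FPKM in the same WT libraries.

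Of 104 further ER genes looked for by symbol or synonym, 102 were in the table and tested, and 0 of them passed (0.0259% of all tested genes did). At an unadjusted p under 0.05 there were 12, of which 2 were higher and 10 lower in the cKO-labelled libraries, or 11.8% against 12.3% of all tested genes. Their median log2 fold change was -0.020. Among 22 further degradation factors, 19 had higher means in the cKO-labelled libraries (median 0.074), where 5172 of all 11596 tested genes did. The groups did not overlap for 31.8% of the 22 (6 higher and 1 lower), against 17.2% of all tested genes. Svip, a small inhibitor of ER-associated degradation that binds VCP, stood at 17.1, 17.3 and 18.3 FPKM in the cKO-labelled libraries and at 14.7, 13.3 and 14.3 FPKM in WT, with no overlap (log2 fold change 0.29, SE 0.063, unadjusted p = 0.00136, adjusted p = 0.189). Selenos, a selenoprotein that ties VCP to the ER membrane, averaged 45.6 FPKM in the cKO-labelled libraries and 40.5 FPKM in WT (adjusted p = 0.390), and Selenok, another selenoprotein of the ER membrane, 121 FPKM in the cKO-labelled libraries and 111 FPKM in WT (adjusted p = 0.458).

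Among 34 further folding enzymes 25 had lower means in the cKO-labelled libraries, where 6405 of all 11596 tested genes did. The median log2 fold change of the 34 was -0.052. Mogs, the glucosidase that trims the first sugar from new glycans, stood at 7.52, 7.08 and 7.88 FPKM in the cKO-labelled libraries and at 9.22, 9.22 and 9.71 FPKM in WT (log2 fold change -0.29, SE 0.068, adjusted p = 0.218). Fkbp2, a prolyl isomerase, averaged 83.4 ± 2.95 FPKM in the cKO-labelled libraries and 98.1 ± 4.92 FPKM in WT (adjusted p = 0.235), and Serpinh1, the collagen chaperone HSP47, 98.6 ± 5.50 FPKM in the cKO-labelled libraries and 114 ± 2.58 FPKM in WT (adjusted p = 0.242). These 3 genes did not overlap between the groups, while 26.5% of the 34 did not, against 17.2% of all tested genes. Among 29 further genes of translocation, signal peptide cleavage and glycosylation, the oligosaccharyltransferase subunits Stt3a, at 36.0 FPKM in the cKO-labelled libraries and 40.5 FPKM in WT on average (adjusted p = 0.297), and Krtcap2, at 94.5 FPKM in the cKO-labelled libraries and 105 FPKM in WT (adjusted p = 0.334), and the second pore subunit Sec61a2, at 14.2 FPKM in the cKO-labelled libraries and 16.1 FPKM in WT (adjusted p = 0.402), had the lowest p. Among 17 further signalling genes these were Nfya, an NF-Y subunit at 11.7 FPKM in the cKO-labelled libraries and 13.6 FPKM in WT on average (adjusted p = 0.316), Trib3, and the NF-Y subunit Nfyb, at 7.77 FPKM in the cKO-labelled libraries and 8.48 FPKM in WT (adjusted p = 0.623).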

How the data were processed

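RNA was measured in 3 libraries labelled cKO and 3 labelled WT. The deposited values are FPKM, 1 per gene and library with 2 decimals, per the file headers. Per the submitters' processing notes, Bowtie2 was among the tools and GRCm38 (mm10) was the build. The role and version of that aligner, the counting tool, annotation, transcript lengths, strandedness and filters are not given in the sources used. FPKM carry no read totals and none were derived here, so the depth behind a value is unknown, and precision rests on the spread between libraries. Reads shared by overlapping genes or near-identical copies cannot be told apart.

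Genes averaging 1 FPKM or more across the 6 libraries (11596 of 14327) were compared as log2(FPKM + 1), cKO minus WT, by limma 3.58.1 in R 4.3.3 (lmFit, then eBayes with the trend option), with two-sided p-values adjusted by Benjamini-Hochberg over the 11596 genes and a threshold of 0.05. Fold changes on this scale understate changes of low genes. The fit was tested on simulated data. The members, roles, lists and alternatives were chosen with earlier results of these data known. Values in every library are given for the 5, 5, 3 and 4 members of lowest p in the folding, degradation, translocation and sensor roles, for Hspa5, Hsp90b1, Dnajb9, Sdf2l1, Herpud1, Xbp1, Ern1, Eif2ak3, Atf6 and Ppp1r15a, and for the targeted gene. Derl3, Svip, Mogs, Trib3, Ddit3, Ero1l and Atf4 are given likewise, the first as the member left out of the test and the others from the 3 genes of lowest p in each further role and a fixed choice. Of the further ER genes 5 were matched through a synonym. Positions and promoters are those of RefSeq in GRCm38.p6, matched by gene identifier and read with Python 3.11.15. Alternatives were another pseudocount (0.1), no filter or a mean of at least 5 FPKM, quantile and median-of-ratios scaling, no trend, weighted libraries, a block for the replicate number, the Y-linked level as a covariate, WT replicate 3 as the only WT library, and leaving out each library. Figures were drawn with matplotlib 3.10.9.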

Additional observations from a re-analysis of the deposited data

How the results depend on the processing

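No ER gene among the 42 or the further 102 passed an adjusted p of 0.05 by limma in the main comparison or under any of the 16 alternatives run. Among the 37 genes chosen for values under each alternative, the lowest adjusted p by limma was 0.0541, with library weights. The count of genes passing over the whole table, 3, was less stable: it was 0 with no filter, quantile normalization, no trend, the Y-linked covariate or WT replicate 3 alone, 129 with library weights, and 0 to 10 without a single library, 0 without WT replicate 1 or cKO replicate 1, and 10 without WT replicate 3. The count of members at an unadjusted p under 0.05 was 1 in the main fit. It was 2 with a mean of at least 5 FPKM (5.13%, against 13.0% of all tested genes in that fit) and 5 with library weights (12.2%, against 20.7%). Leaving out a single library gave from 0 without WT replicate 1 (against 8.35% of all tested genes) to 7 without cKO replicate 2 (17.1%, against 11.9%). The replicate numbers are not known to pair the libraries: same-numbered libraries deviated together with r = -0.043, 0.30 and 0.26 over 11596 genes, and cKO replicate 1 went best with WT replicate 3 (r = 0.17). With the replicate block 22 genes passed over the whole table, none of them an ER gene. In that fit 2 members (Pdia6 and Hsp90b1) had an unadjusted p under 0.05, or 4.88%, against 15.0% of all tested genes.

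The median log2 fold change of the members, -0.025, ran from -0.057 (without cKO replicate 2) to 0.0027 (without cKO replicate 1). The degradation median was -0.042 against WT replicate 3 alone, the translocation median -0.11 with the Y-linked covariate, and the sensor median 0.024 with that covariate and -0.021 against WT replicate 3 alone. Without a single library the translocation median ran from -0.042 to 0.047, the degradation median from -0.0059 to 0.049, the folding median from -0.076 to -0.017 and the sensor median from -0.12 to -0.063. Scaling, pseudocount, filter, trend and block turned the sign of none of the members tested, and quantile normalization moved the median of all genes only from -0.015 to 0.0079.

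Signs turned in other settings, for values that did not pass in either: for 19 of the 41 members with the Y-linked covariate, 13 against WT replicate 3 alone, 5 with library weights and 1 to 7 without a single library. Values follow for those genes among the 37 chosen for values under each alternative. With the Y-linked covariate the log2 fold changes were 0.064 for Hsp90b1, 0.12 for Edem1, -0.13 for Os9, -0.13 for Sec61a1, -0.12 for Sec61g, 0.024 for Mbtps1, 0.52 for Ppp1r15a, 0.16 for Ern1, 0.079 for Atf6, -0.098 for Selenos, -0.017 for Selenok, 2.76 for Ero1l, 1.29 for Trib3 and 1.49 for Ddit3, with a lowest adjusted p of 0.897. Against WT replicate 3 alone they were -0.062 for Os9, -0.035 for Sec61a1, -0.055 for Sec61g, 0.10 for Ppp1r15a, 0.021 for Ern1, 0.77 for Ero1l, 0.25 for Trib3 and 0.39 for Ddit3. Os9 stood at -0.031 with library weights. Without a single library Derl1 ran from -0.0024 to 0.068, Os9 from -0.044 to 0.061, Sec61a1 from -0.0084 to 0.053, Sec61g from -0.076 to 0.059 and Atf4 from -0.17 to 0.041. Among members that kept their sign, Pdia4 ran from -0.21 to -0.037, Sec63 from -0.14 to -0.046 and Mbtps2 from -0.25 to -0.10. The fit with the Y-linked covariate and the fit against WT replicate 3 alone are not independent. Within the groups the Y-linked level differed most between WT replicate 3 (25.9 FPKM) and WT replicates 1 and 2 (0.10 and 0.07 FPKM). The covariate fit thus leans on WT replicate 3, and the cKO-labelled libraries, at 43.8 to 51.2 FPKM, lie beyond the WT range. The cause of these turns was not tested. The 3 libraries in each group limit the precision.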
